A study of Mus musculus with 18 samples.

Results

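The 47 genes described here are the mouse members of the SLC25 family of mitochondrial carriers, taken as every gene whose symbol is Slc25a followed by a number. They were 47 of the 55421 genes in the deposited tables, and 42 of them had enough counts to be tested. The other 5, Slc25a2, Slc25a18, Slc25a31, Slc25a41 and Slc25a54, had at most 5 estimated counts in any library. Each SLC25 protein is a small membrane protein that moves a particular solute between the cytosol and the mitochondrial matrix, usually by exchanging a molecule on each side of the inner membrane. Through these exchanges ATP leaves the matrix, phosphate, fatty acyl groups, amino acids, iron and vitamins enter it, and citrate is passed to the cytosol. The proximal tubule is rich in mitochondria because it pays for the reabsorption of filtered solutes by oxidative metabolism. The family label needs some care, since Slc25a17 sits in peroxisomes, Slc25a46 sits in the outer mitochondrial membrane, and the uncoupling proteins Ucp1 to Ucp3 and the relatives Mtch1 and Mtch2 belong to the family without carrying the symbol.

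The series followed proximal tubule cells as they went into primary culture. Kidneys of female C57BL/6J mice, wild type and 6 weeks old, were digested with collagenase, and the tubule fraction was taken from a Percoll gradient. Cells were collected before plating (day 0) and after 1, 2, 4, 7 and 14 days on tissue culture plastic without passaging, with 3 libraries (A, B and C) at each time, giving 18 libraries of polyA-selected RNA. No genotype or drug differs between the groups, so time in culture is the only contrast, and day 0 is the reference for every culture day. The labels do not say whether the 3 libraries of a day came from separate mice, so each p-value here speaks for the spread among the libraries alone, which may be technical.

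Depth lay between 23799559 and 37579097 estimated counts a library. Markers of the proximal tubule fell with plating: the 10 markers summed to between 38.2 and 58.1 CPM (counts scaled to library size) on day 4 and between 101 and 120.4 CPM on day 14, against 25051 to 29655 CPM on day 0, with Slc22a8 at 0 in every day 14 library. Day 0 also held RNA of other cells. Loop of Henle markers summed to between 30.9 and 40.6 CPM on day 14, against 5589 to 6760 CPM on day 0, and endothelial markers to between 6.93 and 8.73 CPM on day 14, against 188 to 256 CPM on day 0. Not every list fell. Fibroblast and pericyte markers summed to between 119.6 and 165.5 CPM on day 14, against 26.0 to 30.1 CPM on day 0. Of the 5 tested genes of that list, 2 were higher and 3 lower on day 14. Macrophage and myeloid markers summed to between 32.4 and 38.8 CPM on day 14, against 19.2 to 46.0 CPM on day 0. Of the 6 tested genes of that list, 1 was higher and 3 lower on day 14, with a median log2 fold change of -1.82. Among all tested genes 37.4% were higher and 32.1% lower on that day. In bulk RNA, fewer cells of a type and less RNA per cell cannot be told apart, and the part of these shifts in the carrier changes was not tested. Day 7 replicate C stood apart from replicates A and B of that day: counts of all genes differed between C and the other 2 libraries by 153 and 157 chi-square units per degree of freedom, against 7.03 to 51.6 for every other pair of libraries of the same day.

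Levels of a gene over time are given below in counts-per-million (CPM) after TMM scaling (a scaling of each library that centres most genes), and comparisons between genes use transcripts-per-million (TPM), which corrects for transcript length. A gene is called higher or lower where edgeR's quasi-likelihood test, fitted on all 18754 tested genes, gave a Benjamini-Hochberg adjusted p under 0.05. Fold changes are log2 values, culture over day 0 unless another day is named, with their standard error (SE).

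Most carriers fell when the cells were plated and stayed low. On day 1, 30 of the 42 tested carriers were lower and 5 higher than on day 0, where 37.1% of all genes were lower and 33.1% higher. The counts were 31 lower and 2 higher on day 2 (35.3% and 38.9% of all genes), 33 lower and 3 higher on day 4 (36.8% and 38.1%), 32 lower and 3 higher on day 7 (32.1% and 37.6%), and 32 lower and 3 higher on day 14 (32.1% and 37.4%). The median carrier changed by -1.23, -1.61, -1.40, -1.48 and -1.49 on the log2 scale on days 1, 2, 4, 7 and 14, while the median of all tested genes moved by -0.0077, 0.14, 0.076, 0.16 and 0.16. Scaling by library totals alone moved the median of all genes to 0.29, 0.65, 0.57, 0.66 and 0.72 on the same days. With that scaling the carriers split into 29 lower and 8 higher on day 1, 28 and 8 on day 2, 27 and 6 on day 4, 25 and 9 on day 7, and 26 and 9 on day 14. The shares of all genes above belong to TMM scaling and do not apply to these counts. The shares with library totals alone are not given here, so these counts cannot be called many or few.

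On all 5 culture days 28 carriers were lower than on day 0, a pattern met by 22.1% of all tested genes. In these 28 every culture library lay below every day 0 library. That lack of overlap comes from the same libraries as the calls and adds no separate support. Its share among all genes is not given here. With library totals alone 23 of these 28 were still lower on all 5 days, and on the TPM scale 22 were. Slc25a1, Slc25a29, Slc25a38, Slc25a40 and Slc25a44 were lost under both, and Slc25a26 on the TPM scale. Slc25a38 was also lost without any of 14 single libraries, and Slc25a1 without day 2 replicate A or any day 14 library. Slc25a24 and Slc25a43 were higher on all 5 days, a pattern met by 19.9% of all genes. Slc25a14, Slc25a47 and Slc25a53 were called on none of the 5 days, against 6.83% of all genes, but with library totals alone or on the TPM scale each was called higher on day 7 and day 14. Slc25a32, Slc25a33 and Slc25a46 were called in both directions on different days. By any difference among the 6 days, 39 of the 42 carriers were called, where 89.8% of all genes were.

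**Figure D1:**
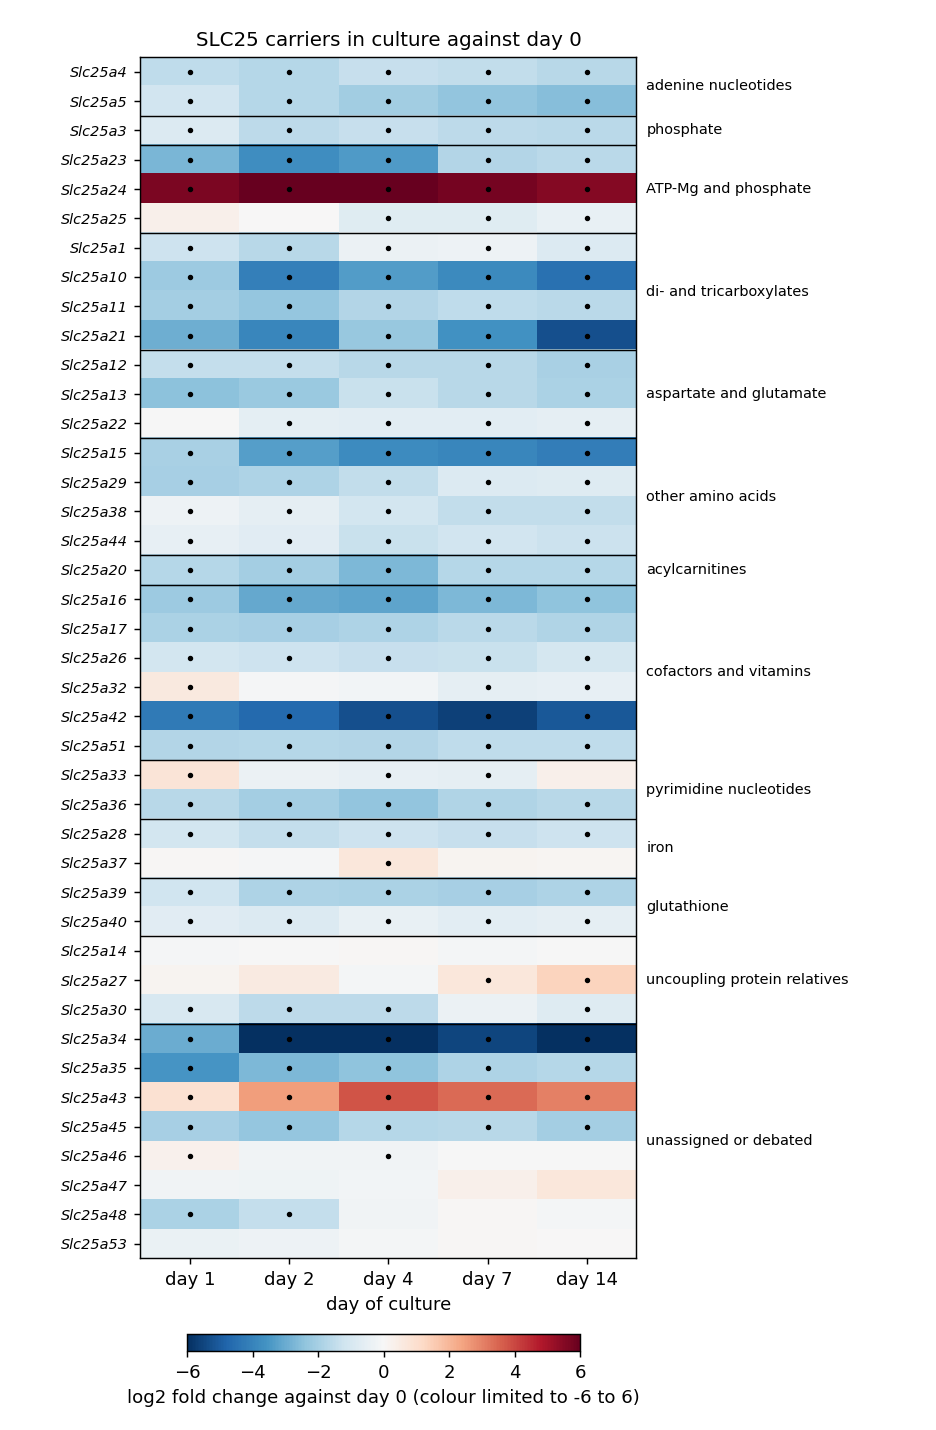
Rows are tested SLC25 carriers, grouped by substrate, and each column a culture day. Colour gives the edgeR log2 fold change against day 0 (3 libraries a day), limited to -6 to 6, and a black dot marks an adjusted p under 0.05. Slc25a24 is the dark red row (log2 fold change 6.31 on day 4), Slc25a43 the lighter red row (3.77), and Slc25a42 and Slc25a34 are the darkest blue rows (-5.27 and -7.78).

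Summed over all 47 members, carrier transcripts took 6358 ± 81.8 TPM on day 0, 3585 ± 315 TPM after 1 day and 2933 ± 101 TPM after 2 days (SD, n = 3 a day). Later sums were 3005 ± 40.7 TPM after 4 days, 2937 ± 213 after 7 and 2938 ± 60.6 after 14. The drop was thus largely in place by day 2. Carriers of adenine nucleotides made up 36.3 ± 0.142% of that pool on day 14, against 47.5 ± 0.337% on day 0. Their share shrank while that of the ATP-Mg and phosphate carriers was 5.06 ± 0.0861% on day 14, against 1.2 ± 0.151% on day 0, and peaked at 6.1 ± 0.211% on day 2. The phosphate carrier's share was 17.9 ± 0.279% on day 14, against 14.2 ± 0.479% on day 0. Carriers of di- and tricarboxylates held 10.04 ± 0.343% on day 14, against 11.2 ± 0.409% on day 0, after a low of 5.66 ± 0.437% on day 2.

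**Figure D2:**
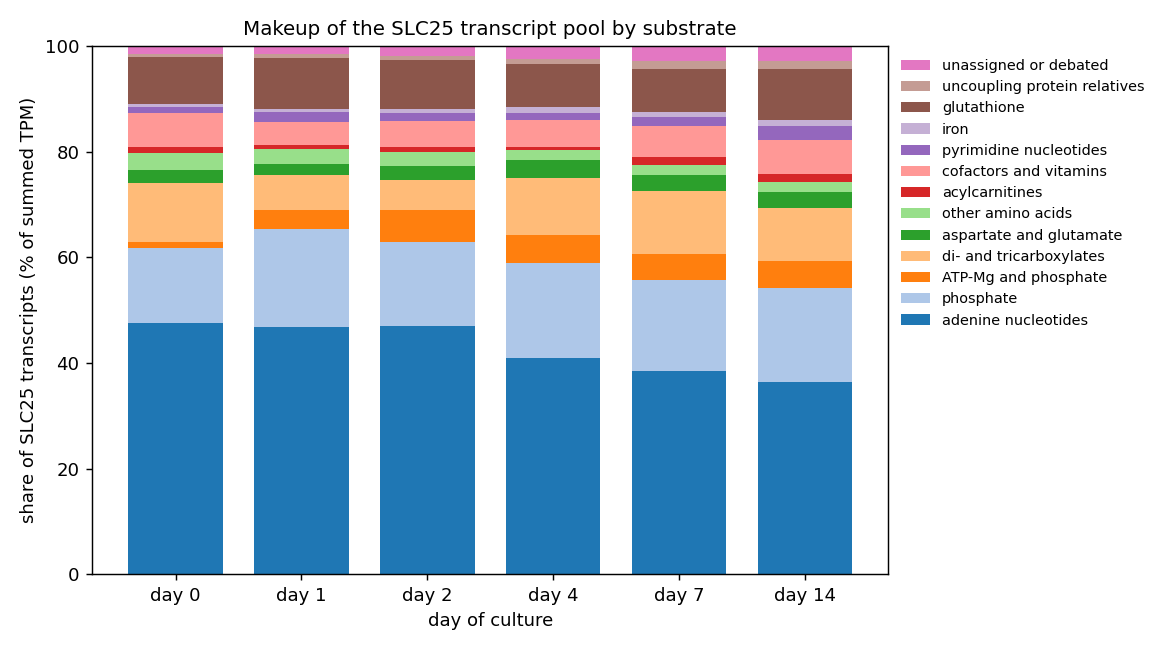
Each bar is a day of culture, and its segments give the mean share of the summed TPM of all 47 SLC25 members (in percent, 3 libraries a day) taken by carriers of each substrate. The bottom segment, adenine nucleotides, is 36.3 ± 0.142% on day 14, against 47.5 ± 0.337% on day 0, and the orange ATP-Mg and phosphate segment is 5.06 ± 0.0861%, against 1.2 ± 0.151% (SD, n = 3 each).

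Before the time course of single carriers, their order on each day gives the scale. Slc25a5 and Slc25a3 ranked first and second in TPM on all 6 days. On day 0 Slc25a5 stood at 2430.2 ± 33.4 TPM, Slc25a3 at 902 ± 28.9 TPM, Slc25a4 at 589 ± 15.2 TPM, Slc25a39 at 566 ± 19.5 TPM, Slc25a10 at 332 ± 38.5 TPM and Slc25a11 at 239 ± 12.6 TPM (SD, n = 3). The libraries of Slc25a4 and Slc25a39 overlapped on that day, whereas the other neighbours among these 6 did not. On day 14 the order was Slc25a5 at 739 ± 24.6 TPM, Slc25a3 at 524 ± 11.8 TPM, Slc25a4 at 329 ± 5.11 TPM, Slc25a39 at 276 ± 9.53 TPM, Slc25a11 at 139 ± 2.86 TPM, Slc25a1 at 129 ± 3.58 TPM and Slc25a24 at 80.3 ± 0.797 TPM, with no overlap between neighbours. The 4 leading carriers together held 63.6% ± 0.310 of the pool on day 14, against 70.6% ± 0.982 on day 0.

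The ADP/ATP carriers and the phosphate carrier supply ATP synthase with its substrates and release its product. Slc25a5 (ANT2, ENSMUSG00000016319, chrX:36795651-36798807, plus strand, GRCm38), the ADP/ATP carrier isoform that prevails in dividing cells, measured 2510.4, 2558 and 2520.2 CPM on day 0, 1146, 1294 and 1002 after 1 day and 816, 706 and 781 after 2 days. Slc25a5 then stood at 583, 604 and 589 CPM after 4 days, 514, 558 and 412 after 7 and 415, 454 and 426 after 14. Its mean was lower on each later day, and no culture library overlapped day 0 (log2 fold change -2.55, SE 0.12, edgeR adjusted p = 2.15e-11 for day 14). Slc25a4 (ANT1, ENSMUSG00000031633, chr8:46206797-46211284, minus strand), the isoform of heart and muscle, gave 994, 1088 and 1055 CPM on day 0, 337, 432 and 317 after 1 day and 317, 347 and 304 after 2 days. Slc25a4 then stood at 397, 423 and 366 CPM after 4 days, 383, 381 and 354 after 7 and 325, 331 and 329.7 after 14. It was near its later level from day 1 on (log2 fold change -1.53, SE 0.1, edgeR adjusted p = 2.57e-09), and day 14 was similar (log2 fold change -1.67, SE 0.1, edgeR adjusted p = 6.21e-10). The share of Slc25a5 in the TPM of the pair was 84.5% ± 0.835 on day 1, 71.9% ± 1.16 on day 4 and 69.2% ± 0.789 on day 14, against 80.5% ± 0.613 on day 0 (SD, n = 3). Slc25a3, which brings phosphate into the matrix, counted 1229.8, 1200.0 and 1260.2 CPM on day 0, 675, 777 and 641 after 1 day and 445, 410.4 and 407 after 2 days. Slc25a3 then stood at 457, 484 and 465 CPM after 4 days, 426, 443 and 389 after 7 and 394, 428 and 392 after 14. All culture libraries were below all day 0 libraries (log2 fold change -1.6, SE 0.084, edgeR adjusted p = 8.54e-11 for day 14).

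**Figure D3:**
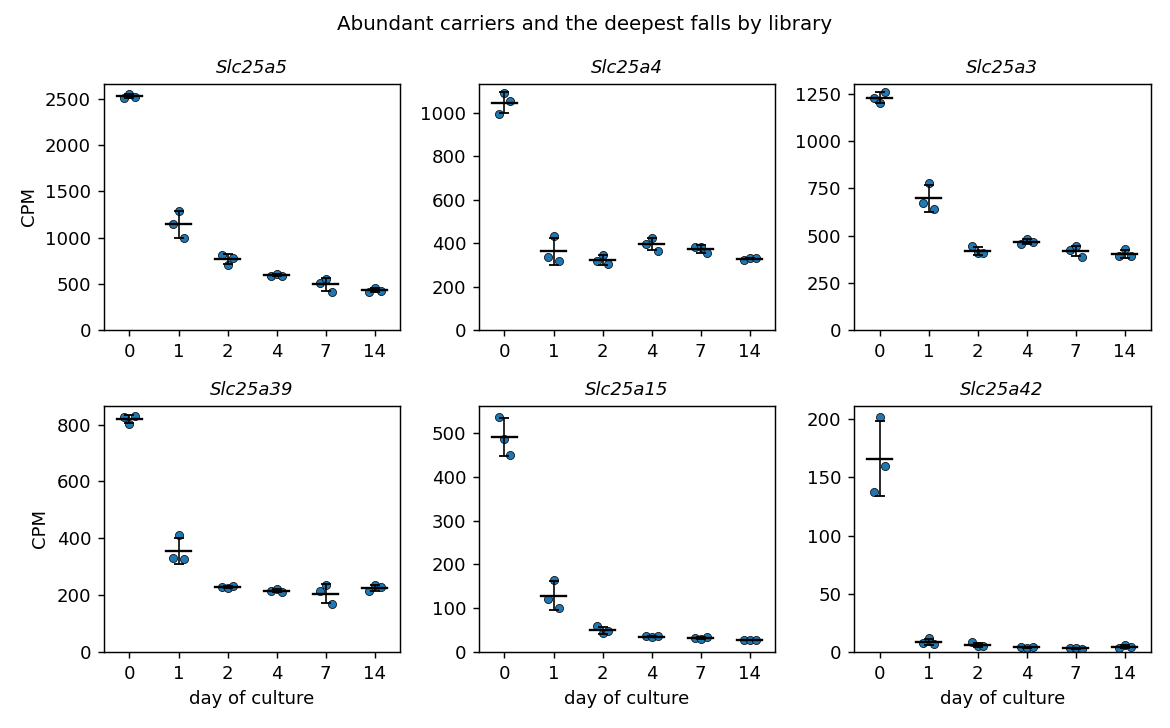
Points are the CPM of single libraries (A, B and C from left to right) on each day of culture for Slc25a5, Slc25a4, Slc25a3, Slc25a39, Slc25a15 and Slc25a42. Horizontal lines are means and bars the SD of 3 libraries, and each axis starts at 0. Slc25a42 averaged 8.87 ± 2.6 CPM on day 1, against 166 ± 32.5 CPM on day 0, and Slc25a5 averaged 431 ± 20.3 CPM on day 14, against 2529 ± 24.9 CPM on day 0.

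The ATP-Mg/phosphate carriers, which use calcium-binding arms to adjust the adenine nucleotide pool of the matrix, moved in opposite directions. Slc25a24 (SCaMC-1, ENSMUSG00000040322, chr3:109123149-109168457, plus strand), the form known from tumour and other dividing cells, rose more than any other called carrier with at least 5 CPM on days 1, 4 and 14. It counted 2.89, 2.77 and 4.62 CPM on day 0, 158, 165 and 183 after 1 day and 257, 269.8 and 279 after 2 days. Slc25a24 then stood at 282, 270.4 and 257 CPM after 4 days, 147, 135 and 261 after 7 and 153, 158 and 149 after 14. Every culture library was above every day 0 library, with the top on days 2 and 4 (log2 fold change 6.31, SE 0.25, edgeR adjusted p = 6.22e-12 for day 4) and a later decline that left it far above day 0 (log2 fold change 5.5, SE 0.25, edgeR adjusted p = 1.88e-11 for day 14). Within day 7, replicate C alone kept the level of days 2 and 4. Slc25a23 (SCaMC-3, ENSMUSG00000046329, chr17:57043711-57059863, minus strand), the form of liver, brain and muscle, ran the other way with 105, 102 and 107 CPM on day 0, 14.8, 20.7 and 11.4 after 1 day and 8.85, 8.1 and 6.57 after 2 days. Slc25a23 then stood at 11, 8.71 and 9.86 CPM after 4 days, 38.9, 37.1 and 16 after 7 and 33.9, 32.7 and 34.7 after 14. It was lowest on days 2 and 4 (log2 fold change -3.41, SE 0.28, edgeR adjusted p = 1.38e-08 for day 4) and had regained part of its level by day 14 (log2 fold change 1.78, SE 0.26, edgeR adjusted p = 4.77e-05 for day 14 against day 4). Day 7 replicate C again stood nearer to day 4 than replicates A and B did. Slc25a25 (SCaMC-2, ENSMUSG00000026819, chr2:32414487-32451445, minus strand), a form of muscle and brain, measured 85.7, 141 and 97.2 CPM on day 0, 139, 138 and 117 after 1 day and 114, 108 and 104 after 2 days. Slc25a25 then stood at 67.7, 70.5 and 59.1 CPM after 4 days, 59.5, 62 and 74 after 7 and 75.5, 82.6 and 78 after 14. Its day 0 libraries were spread widely and overlapped those of days 1 and 2. It was lower on day 4 (log2 fold change -0.71, SE 0.15, edgeR adjusted p = 0.000328), a call lost with library totals alone (-0.22) and on the TPM scale (-0.13). Its day 14 call (log2 fold change -0.46, SE 0.14, edgeR adjusted p = 0.0105) was lost without day 14 replicate A, day 14 replicate C or day 0 replicate B and changed sign to 0.11 with library totals alone as the scaling. Of the summed TPM of Slc25a24 and Slc25a23, Slc25a24 took 2.27, 2.23 and 3.6% in the day 0 libraries, 88.9, 86.4 and 92.2% after 1 day and 95.3, 96.6 and 97.4% after 2 days. It took 95.7, 95.9 and 95.4% after 4 days, 77.5, 75.7 and 93.9% after 7 and 79.3, 79.8 and 78.9% after 14. This share is a ratio within a library, so it does not depend on how libraries are scaled. Slc25a23 overlaps an antisense gene (Gm17168) and Slc25a25 the gene Naif1 on the opposite strand by exon, and because the strand setting of the counting is not given in the sources used here, reads of such partners cannot be told apart.

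**Figure D4:**
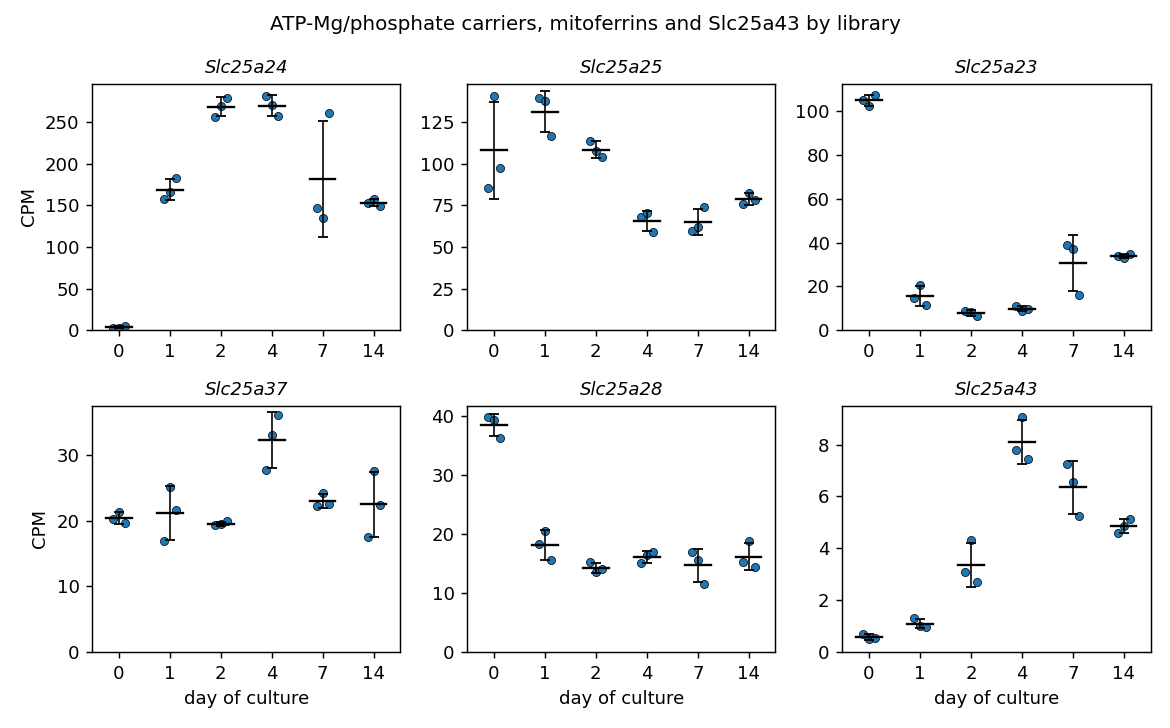
Points are the CPM of single libraries (A, B and C from left to right) on each day of culture for the ATP-Mg/phosphate carriers Slc25a24, Slc25a25 and Slc25a23, the mitoferrins Slc25a37 and Slc25a28, and Slc25a43, with means as lines and SD as bars (n = 3), each axis from 0. Slc25a24 averaged 269.9 ± 12.3 CPM on day 4, against 3.43 ± 1.03 CPM on day 0, while Slc25a23 averaged 9.86 ± 1.15 CPM on day 4, against 105 ± 2.61 CPM on day 0.

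The 250 bases before the RefSeq start sites of Slc25a24 and Slc25a23 (RefSeq, GRCm38.p6) are shown because these carriers moved in opposite directions. They are written 5′ to 3′ on the strand of the gene, with Slc25a24 at chr3:109122899-109123148 on the plus strand and the first listed start of Slc25a23 at chr17:57059864-57060113 on the minus strand. Neither window holds any of the 7 motifs searched, so neither carries capitals.
Slc25a24: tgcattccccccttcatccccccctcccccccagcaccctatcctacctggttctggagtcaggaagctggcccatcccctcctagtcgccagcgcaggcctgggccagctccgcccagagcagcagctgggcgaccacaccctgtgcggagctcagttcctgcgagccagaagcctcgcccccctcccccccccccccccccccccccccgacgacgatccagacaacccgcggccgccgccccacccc
Slc25a23: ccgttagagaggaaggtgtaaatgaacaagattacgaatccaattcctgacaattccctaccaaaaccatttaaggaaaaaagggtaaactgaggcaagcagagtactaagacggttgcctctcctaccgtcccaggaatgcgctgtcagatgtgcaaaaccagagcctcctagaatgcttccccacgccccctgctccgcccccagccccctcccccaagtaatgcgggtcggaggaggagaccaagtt

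Carriers of di- and tricarboxylates link the citric acid cycle to the cytosol, and all 4 fell but with different courses. Slc25a1, which exports the citrate used to make fatty acids and sterols, counted 177, 175 and 186 CPM on day 0, 73.6, 81 and 69.9 after 1 day and 56.4, 58.4 and 56.2 after 2 days. Slc25a1 then stood at 141, 143 and 134 CPM after 4 days, 169, 146 and 119.9 after 7 and 99.4, 102 and 103 after 14. It was low on days 1 and 2, returned near its starting level on days 4 and 7, and was lower again on day 14 (log2 fold change -0.46, SE 0.095, edgeR adjusted p = 0.00089 against day 4). Against day 0 it was lower on day 4 (log2 fold change -0.36, SE 0.095, edgeR adjusted p = 0.00254) and on day 14 (log2 fold change -0.82, SE 0.095, edgeR adjusted p = 1.16e-06) with TMM scaling, but the sign turned to 0.13 on day 4 with library totals alone and to 0.30 on day 4 and 0.017 on day 14 on the TPM scale. Slc25a10 (ENSMUSG00000025792, chr11:120491840-120499187, plus strand), which swaps malate or succinate for phosphate and is abundant in kidney, gave 588, 707 and 556 CPM on day 0, 120.5, 212 and 77.4 after 1 day and 34.1, 39.3 and 33.4 after 2 days. Slc25a10 then stood at 61, 63.4 and 57.5 CPM after 4 days, 41.4, 43.3 and 45.2 after 7 and 27.8, 27.5 and 27.4 after 14. The day 1 libraries were already below day 0 though far apart from each other, and later libraries lay lower still (log2 fold change -4.48, SE 0.27, edgeR adjusted p = 3.62e-10 for day 14). Slc25a11, which swaps oxoglutarate for malate in the malate-aspartate shuttle, measured 374, 350.5 and 359 CPM on day 0, 82.6, 103 and 78.6 after 1 day and 71.5, 77.7 and 66.5 after 2 days. Slc25a11 then stood at 107, 109.8 and 101 CPM after 4 days, 136, 136 and 102 after 7 and 119, 118 and 115 after 14. It fell within a day (log2 fold change -2.04, SE 0.12, edgeR adjusted p = 3.79e-10) and its day 14 level was not distinguished from that of day 4 (log2 fold change 0.15, SE 0.11, edgeR adjusted p = 0.269). Slc25a21, which carries the oxoadipate formed from lysine and tryptophan, was a low-level carrier at 30.5, 27.6 and 29.1 CPM on day 0, 3.43, 4.96 and 3.15 after 1 day and 1.5, 2.43 and 1.95 after 2 days. Slc25a21 then stood at 5.32, 6.86 and 5.78 CPM after 4 days, 1.35, 1.45 and 4.16 after 7 and 0.528, 0.463 and 1.24 after 14. It was higher on day 4 than on day 2 and lowest on day 14 (log2 fold change -5.28, SE 0.44, edgeR adjusted p = 2.39e-08 against day 0). In day 7 replicate C it was at 4.16 CPM, above both other libraries of that day, and its mean on day 7 was 1.40 CPM without that library and 2.32 CPM with it. Slc25a10, Slc25a11 and Slc25a21 each share exon bases with a gene on the opposite strand (Gm11788, Rnf167 and Pax9).

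Among the enzymes that meet exported citrate, Acly, which splits it to acetyl-CoA, averaged 713 ± 54 CPM on day 4, against 323 ± 21.1 CPM on day 0. Fatty acid synthase Fasn averaged 482 ± 62.9 CPM on day 4, against 37.5 ± 2.69 CPM on day 0. Of the 5 listed genes of citrate making and use, 3 (Acly, Acaca and Fasn) were higher on day 4, 1 was lower and 1 was not called. Among all genes 38.1% were higher and 36.8% lower on that day. On day 1, 2 of the 5 were higher and 3 lower (33.1% and 37.1% of all genes), and day 2 had the same split (38.9% and 35.3%). By day 14, 2 were higher and 2 lower than on day 0 (37.4% and 32.1%), and 4 were lower than on day 4 (23.3%). All 4 listed enzymes of the malate-aspartate shuttle were lower on day 4 and on day 14 (36.8% and 32.1% of all genes). Mdh1, the cytosolic malate dehydrogenase, had the largest of these changes at day 4 with a log2 fold change of -3.59.

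**Figure D5:**
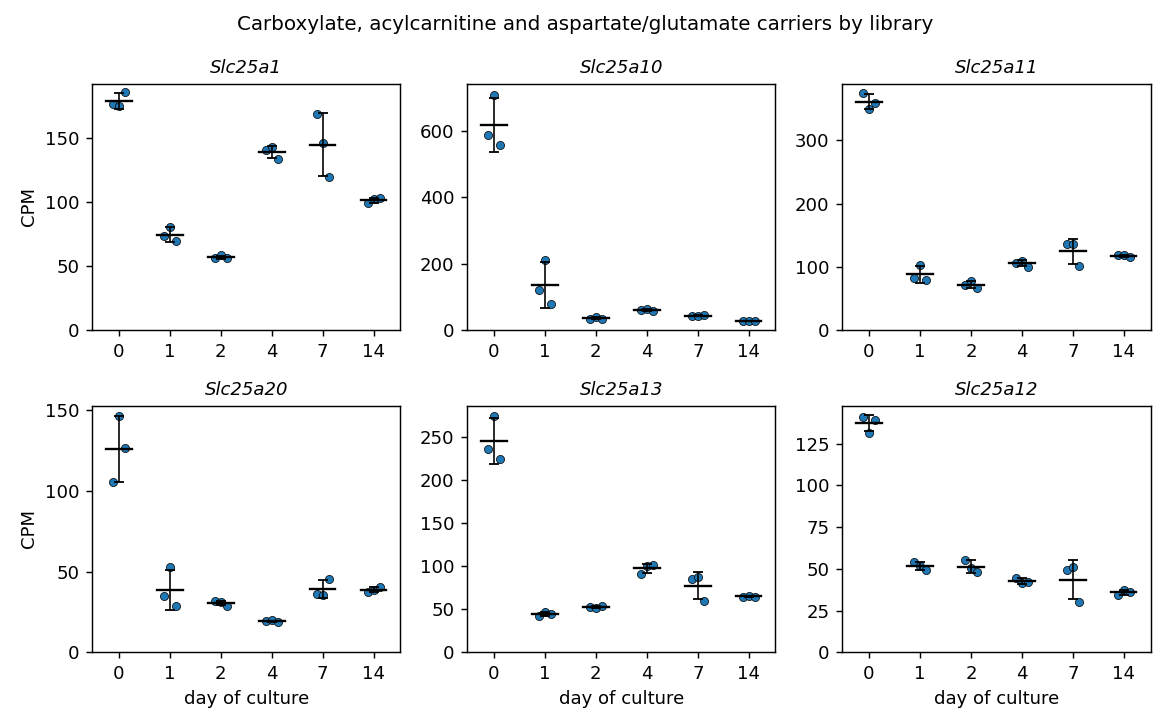
Points are the CPM of single libraries (A, B and C from left to right) on each day of culture for the carriers of citrate (Slc25a1), dicarboxylates (Slc25a10), oxoglutarate (Slc25a11), acylcarnitine (Slc25a20) and aspartate and glutamate (Slc25a13 and Slc25a12), with means as lines and SD as bars (n = 3), each axis from 0. Slc25a1 returned to 139 ± 4.9 CPM on day 4, against 179 ± 6.06 CPM on day 0, whereas Slc25a10 stayed at 60.7 ± 2.96 CPM on day 4, against 617 ± 79.9 CPM on day 0.

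Aspartate/glutamate carriers complete the malate-aspartate shuttle. Slc25a13 (citrin), the liver and kidney form, counted 236, 275 and 224 CPM on day 0, 42.5, 47 and 44.5 after 1 day and 52.1, 51.3 and 53.2 after 2 days. Slc25a13 then stood at 90.8, 100.3 and 101 CPM after 4 days, 84.8, 87.1 and 58.9 after 7 and 64.7, 65.6 and 63.8 after 14. Its lowest values came on days 1 and 2 (log2 fold change -2.45, SE 0.12, edgeR adjusted p = 9.22e-11 for day 1), and it was partly back by day 4 (log2 fold change -1.33, SE 0.12, edgeR adjusted p = 3.7e-08). Slc25a12 (aralar), the form of brain and muscle, measured 141, 132 and 139.5 CPM on day 0, 53.8, 52 and 49.1 after 1 day and 55.4, 50.3 and 48.1 after 2 days. Slc25a12 then stood at 44.6, 41.8 and 42 CPM after 4 days, 49.4, 51.2 and 30.2 after 7 and 34.2, 37.4 and 36.2 after 14. It fell on day 1 (log2 fold change -1.41, SE 0.14, edgeR adjusted p = 2.04e-07) with no return (log2 fold change -1.93, SE 0.14, edgeR adjusted p = 4.77e-09 for day 14). The share of Slc25a13 in the TPM of the pair was 43% ± 2.5 on day 1 and 61.8% ± 1.78 on day 14, against 63.1% ± 4.04 on day 0. Slc25a22, which imports glutamate with a proton, gave 39.1, 35.1 and 44.5 CPM on day 0, 38.5, 37.3 and 41.9 after 1 day and 29.8, 24.5 and 24.3 after 2 days. Slc25a22 then stood at 25.7, 26.3 and 24.8 CPM after 4 days, 25.1, 24.9 and 26.4 after 7 and 26.8, 27.4 and 28.2 after 14. Its day 1 and day 0 libraries overlapped, and from day 2 on it was lower (log2 fold change -0.63, SE 0.097, edgeR adjusted p = 2.25e-05 for day 4) with TMM scaling, a sign that turned on the TPM scale (0.037 on day 4 and 0.34 on day 14) and, on day 14, with library totals alone (0.033).

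Among the carriers of other amino acids the ornithine carrier fell most. Slc25a15 (ENSMUSG00000031482, chr8:22375551-22398597, minus strand), which exchanges ornithine for citrulline, counted 536, 487 and 449 CPM on day 0, 121, 165 and 99.9 after 1 day and 59, 43.8 and 48.1 after 2 days. Slc25a15 then stood at 36.2, 34.2 and 36.5 CPM after 4 days, 31.6, 30.7 and 34.3 after 7 and 26.8, 27.9 and 28.8 after 14. Each culture day lay below day 0 and the decline went on from day 1 (log2 fold change -1.93, SE 0.15, edgeR adjusted p = 1.01e-08) to day 4 (log2 fold change -3.78, SE 0.16, edgeR adjusted p = 9.16e-12). Day 14 was also below day 0 (log2 fold change -4.14, SE 0.16, edgeR adjusted p = 5.06e-12), but it was not called against day 4. Ornithine aminotransferase Oat, the matrix enzyme that consumes ornithine, averaged 76.4 ± 2.97 CPM on day 14, against 795 ± 23.2 CPM on day 0. Slc25a29, a carrier of basic amino acids, fell by day 1 (log2 fold change -1.98) and was less reduced on day 14 (-0.76), where the sign turned to 0.069 on the TPM scale. Slc25a38, which supplies glycine for heme, and Slc25a44, which imports branched-chain amino acids, were lower on all 5 days, with log2 fold changes of -1.46 and -1.3 on day 14. The sign of Slc25a38 turned on the TPM scale on days 1 and 2 (0.12 and 0.093). All 5 listed enzymes of branched-chain amino acid breakdown were also lower on day 4, where 36.8% of all genes were.

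Acylcarnitine entry rests on Slc25a20 (ENSMUSG00000032602, chr9:108662088-108684641, plus strand), which exchanges acylcarnitine for free carnitine so that fatty acids can be burned. It measured 106, 146 and 127 CPM on day 0, 34.8, 52.7 and 28.8 after 1 day and 31.5, 31.2 and 28.8 after 2 days. Slc25a20 then stood at 19.1, 19.7 and 19.1 CPM after 4 days, 36.2, 35.3 and 45.4 after 7 and 37.3, 38.5 and 40.7 after 14. The level on day 4 was the lowest (log2 fold change -2.71, SE 0.18, edgeR adjusted p = 1.36e-09), and day 14 was higher than day 4 in all 3 libraries (log2 fold change 1.01, SE 0.17, edgeR adjusted p = 0.000178) while still below day 0 (log2 fold change -1.7, SE 0.17, edgeR adjusted p = 2.58e-07). Of the 5 listed enzymes that make or use acylcarnitine, Cpt1a, Cpt1b, Cpt2 and Crat were lower on day 4 and Cpt1c was higher (36.8% and 38.1% of all genes). Cpt1a, the step before the carrier, averaged 25.9 ± 4.72 CPM on day 4 and 64.6 ± 4.05 CPM on day 14, against 684 ± 93.6 CPM on day 0.

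Carriers of cofactors were mostly lower. Slc25a42 (ENSMUSG00000002346, chr8:70184340-70212305, minus strand), which imports coenzyme A, counted 138, 202 and 159 CPM on day 0, 7.64, 11.9 and 7.11 after 1 day and 8.37, 5.68 and 5.32 after 2 days. Slc25a42 then stood at 4.87, 3.93 and 4.12 CPM after 4 days, 3.67, 3.79 and 2.93 after 7 and 3.98, 6.02 and 4.53 after 14. Nearly the whole fall was seen after 1 day (log2 fold change -4.23, SE 0.24, edgeR adjusted p = 3.52e-10), and it lasted (log2 fold change -5.1, SE 0.25, edgeR adjusted p = 4.36e-11 for day 14). Slc25a16, also linked to coenzyme A, was reduced less (log2 fold change -3.14 on day 4 and -2.41 on day 14), so that Slc25a42 held 7.95% ± 1.92 of the TPM of the pair on day 14, against 35.1% ± 3.17 on day 0. Slc25a51, which imports NAD, Slc25a26, which imports S-adenosylmethionine, and the peroxisomal Slc25a17 were lower on all 5 days, with log2 fold changes between -1.78 and -1.05 on day 14. Slc25a32, which carries folate or FAD, gave 29.5, 32.9 and 31.9 CPM on day 0, 42.6, 54.6 and 42.9 after 1 day and 34.1, 29.2 and 27.1 after 2 days. Slc25a32 then stood at 27.7, 28.7 and 27.9 CPM after 4 days, 20.1, 22.2 and 23.1 after 7 and 22.1, 24 and 21.7 after 14. It rose on day 1 (log2 fold change 0.57, SE 0.11, edgeR adjusted p = 0.000197), was not called on days 2 and 4, and was lower on day 14 (log2 fold change -0.48, SE 0.11, edgeR adjusted p = 0.000994), a sign that turned with library totals alone (0.087) and on the TPM scale (0.54). On days 2 and 4 it was called higher with library totals alone (log2 fold changes 0.45 and 0.33) and on the TPM scale (1.07 and 0.95), and on the TPM scale also on days 7 and 14. Of the 5 listed folate enzymes of the matrix, Mthfd2, Mthfd1l and Aldh1l2 were higher on day 4, and Shmt2 and Mthfd2l were lower (38.1% and 36.8% of all genes). Mthfd2 averaged 155 ± 3.81 CPM on day 4, against 3.62 ± 0.268 CPM on day 0.

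Pyrimidine nucleotide carriers bring in building blocks for mitochondrial RNA and DNA, and their balance shifted on day 1. Slc25a33 (PNC1, ENSMUSG00000028982, chr4:149744036-149774277, minus strand) had 31.2, 41 and 29.1 CPM on day 0, 58.5, 64.6 and 47.8 after 1 day and 29.5, 26.7 and 24.6 after 2 days. Slc25a33 then stood at 23.7, 25.3 and 24 CPM after 4 days, 24.2, 30.00 and 16.4 after 7 and 40.4, 44.5 and 42.4 after 14. It was higher on day 1 than on day 0 without overlap (log2 fold change 0.75, SE 0.18, edgeR adjusted p = 0.00131), and lower on day 4 (log2 fold change -0.48, SE 0.18, edgeR adjusted p = 0.0239), a call lost without any of 7 single libraries (day 2 A, day 4 A and C, day 0 B, and day 14 A, B and C) and turned to 0.023 with library totals alone. Slc25a36 (PNC2, ENSMUSG00000032449, chr9:97074961-97111157, minus strand) was lower on all 5 days, at 72.3 ± 9.12 CPM on day 1 and 71.9 ± 5.28 CPM on day 14, against 232 ± 15.4 CPM on day 0. Slc25a33 took 65% ± 0.835 of the TPM of the pair on day 1, 42.8% ± 1.26 on day 7 and 52.7% ± 1.37 on day 14, against 26.8% ± 3.42 on day 0. Slc25a33 shares exon bases with the antisense gene Gm13068.

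The promoters of this pair are shown because both hold the E-box CACGTG, which was found in 7 carriers. The windows are the 250 bases before the RefSeq start, 5′ to 3′ on the strand of the gene (GRCm38.p6, Slc25a33 at chr4:149774268-149774517 and Slc25a36 at chr9:97111042-97111291, both minus strand). Capitals mark the E-box in both, from 8 to 3 bases before the start in Slc25a33 and from 187 to 182 bases before it in Slc25a36, and in Slc25a36 also the cAMP response element TGACGTCA, from 161 to 154 bases before the start.
Slc25a33: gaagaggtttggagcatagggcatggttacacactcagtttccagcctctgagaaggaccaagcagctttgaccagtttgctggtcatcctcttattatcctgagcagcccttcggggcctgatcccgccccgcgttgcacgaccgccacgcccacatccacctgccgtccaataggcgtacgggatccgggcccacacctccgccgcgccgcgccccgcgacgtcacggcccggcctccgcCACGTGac
Slc25a36: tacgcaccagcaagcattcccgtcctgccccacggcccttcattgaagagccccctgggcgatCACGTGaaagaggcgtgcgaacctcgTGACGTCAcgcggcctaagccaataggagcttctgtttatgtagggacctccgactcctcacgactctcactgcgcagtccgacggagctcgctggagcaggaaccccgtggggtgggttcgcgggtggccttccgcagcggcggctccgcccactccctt
Windows of this length were found for 36 of the 47 members and for 27025 genes in all, and 7 motifs were searched on both strands. The E-box was in 7 members (19.4%), namely Slc25a1, Slc25a13, Slc25a14, Slc25a15, Slc25a31, Slc25a33 and Slc25a36, and in 6.86% of all genes. Of these 7, Slc25a1, Slc25a13, Slc25a15 and Slc25a36 were lower on all 5 culture days. Slc25a33 was called in both directions, Slc25a14 was called on no day, and Slc25a31 was not tested. Whether the E-box goes with a course was not tested. The cAMP response element was in 2 members (5.56%, Slc25a25 and Slc25a36) and in 1.77% of all genes. The AP-1 motif was searched in the loose form TGANTCA, which allows any middle base. That form was in 2 members (5.56%, Slc25a11 with TGATTCA and Slc25a13 with TGAGTCA) and in 7.82% of all genes. In Slc25a13 it overlaps the E-box. The motifs of estrogen-related receptor (TNAAGGTCA), HNF4A (CAAAGTCCA), NRF1 (its palindrome of 10 bases) and ATF4 (TGATGNAA) were in none of the 36 windows, and in 1.3%, 0.451%, 0.877% and 3.91% of all genes. A match is a run of letters, not a bound site.

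The balance of the iron carriers shifted as well. Slc25a37 (mitoferrin-1), the form of red cell precursors, counted 20.2, 21.3 and 19.7 CPM on day 0, 16.9, 25.1 and 21.7 after 1 day and 19.3, 19.5 and 19.9 after 2 days. Slc25a37 then stood at 27.6, 33.1 and 36 CPM after 4 days, 22.2, 24.1 and 22.5 after 7 and 17.6, 27.5 and 22.3 after 14. With TMM scaling it was higher on day 4 alone (log2 fold change 0.66, SE 0.16, edgeR adjusted p = 0.00119), and with library totals alone or on the TPM scale it was also called higher on the other 4 culture days. Day 14 lay below day 4 (log2 fold change -0.52, SE 0.15, edgeR adjusted p = 0.0103). Slc25a28 (mitoferrin-2), the form of most tissues, gave 39.9, 39.3 and 36.4 CPM on day 0, 18.4, 20.6 and 15.6 after 1 day and 15.3, 13.6 and 14.2 after 2 days. Slc25a28 then stood at 15.1, 16.6 and 17 CPM after 4 days, 17, 15.6 and 11.6 after 7 and 15.4, 18.8 and 14.5 after 14. It fell by day 1 and stayed there (log2 fold change -1.25, SE 0.14, edgeR adjusted p = 9.09e-07 for day 14). Slc25a37 took 39.1% ± 1.59 of the TPM of the pair on day 4 and 31.4% ± 2.66 on day 14, against 14.6% ± 0.656 on day 0. Slc25a37 shares exon bases with Gm31748 (1249 bases) and the antisense gene Gm27223 (368 bases), both on the opposite strand. Red blood cell markers, including the globins, summed to 0 CPM in every day 4 library, against 65.9 to 99.8 CPM on day 0. Their relation to the level of Slc25a37 was not tested. Of 7 listed genes of iron-sulfur and heme synthesis 6 were lower on day 4, where 36.8% of all genes were.

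Glutathione is made in the cytosol and enters mitochondria through Slc25a39 and its relative Slc25a40. Slc25a39 measured 825, 802 and 829 CPM on day 0, 333, 410.3 and 328 after 1 day and 231, 226 and 232 after 2 days. Slc25a39 then stood at 214, 222 and 213 CPM after 4 days, 214, 236 and 169 after 7 and 215, 236 and 231 after 14. All culture libraries lay below day 0, with most of the fall by day 2 (log2 fold change -1.83, SE 0.11, edgeR adjusted p = 4.59e-10) and little change after it (log2 fold change -1.85, SE 0.11, edgeR adjusted p = 3.59e-10 for day 14). Slc25a40 was far less abundant, at 11.1 ± 0.38 TPM on day 14, against 9.31 ± 0.991 TPM on day 0, and its day 14 call with TMM scaling was smaller (log2 fold change -0.53). On that day its sign turned to 0.037 with library totals alone and to 0.24 on the TPM scale. Slc25a39 held 96.1% ± 0.0441 of the TPM of the pair on day 14, against 98.4% ± 0.21 on day 0.

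Relatives of the uncoupling proteins had mixed courses. Slc25a30 (KMCP1), the kidney mitochondrial carrier protein, had 81.9, 79.3 and 89 CPM on day 0, 39.5, 51.6 and 36.1 after 1 day and 27.9, 23 and 33.4 after 2 days. Slc25a30 then stood at 29.3, 26.4 and 28 CPM after 4 days, 82.6, 75.7 and 35 after 7 and 47.4, 53.8 and 46.8 after 14. It fell by day 4 (log2 fold change -1.58, SE 0.24, edgeR adjusted p = 1.57e-05) and was higher on day 14 than on day 4 (log2 fold change 0.82, SE 0.23, edgeR adjusted p = 0.00775), while replicate C of day 7 stood nearer to day 4 than replicates A and B did. Its day 14 call against day 0 (log2 fold change -0.76, SE 0.23, edgeR adjusted p = 0.00826) turned to 0.062 on the TPM scale. Slc25a27 (UCP4) was higher on days 7 and 14, at 2.86 ± 0.455 CPM on day 14, against 1.12 ± 0.216 CPM on day 0, and Slc25a14 (UCP5) stayed at 9.25 ± 0.904 CPM on day 14, against 9.54 ± 0.542 CPM on day 0, with no call.

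Carriers without an agreed substrate held large changes in both directions. Slc25a34 counted 38, 49.2 and 53.6 CPM on day 0, 4.81, 9.11 and 4.03 after 1 day and 0.86, 0.149 and 0.674 after 2 days. Slc25a34 then stood at 0.221, 0.13 and 0.282 CPM after 4 days, 1.02, 0.354 and 1.76 after 7 and 0.0932, 0.0356 and 0.195 after 14. It came to 6 counts or fewer in each day 14 library, and to 803 to 1366 counts in the day 0 libraries. Slc25a35 measured 39.4, 29 and 27.3 CPM on day 0, 3.04, 2.82 and 2.43 after 1 day and 5.44, 5.34 and 3.94 after 2 days. Slc25a35 then stood at 5.85, 6.47 and 5.88 CPM after 4 days, 8.69, 12.4 and 5.51 after 7 and 8.98, 8.98 and 11 after 14. It was lowest on day 1 (log2 fold change -3.52, SE 0.26, edgeR adjusted p = 6.25e-09) and recovered in part by day 14 (log2 fold change 0.67, SE 0.23, edgeR adjusted p = 0.0251 against day 4, a call lost without day 4 replicate A, day 4 replicate C or day 14 replicate C). It shares 4946 exon bases with Rangrf on the opposite strand. Slc25a43 counted 0.71, 0.504 and 0.565 CPM on day 0, 1.31, 1.03 and 0.979 after 1 day and 3.09, 4.33 and 2.69 after 2 days. Slc25a43 then stood at 7.78, 9.07 and 7.43 CPM after 4 days, 7.24, 6.55 and 5.25 after 7 and 4.6, 4.88 and 5.15 after 14. Its mean was higher on each day up to day 4 (log2 fold change 3.77, SE 0.23, edgeR adjusted p = 5.92e-10), and it was lower on day 14 than on day 4 (log2 fold change -0.73, SE 0.19, edgeR adjusted p = 0.00488). Slc25a45 was lower on all 5 days (log2 fold change -2.03 on day 14), and Slc25a48, linked to choline uptake, was lower on days 1 and 2 only. Slc25a46, which acts on mitochondrial shape, was called higher on day 1 and lower on day 4 by small amounts (log2 fold changes 0.28 and -0.23). The sign of day 4 turned with library totals alone (0.27) and on the TPM scale (0.39), and on both it was called higher on all 5 days.

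Between successive culture days carriers were called in both directions. Whether these counts differ from the shares of all genes was not tested. On day 2, 15 carriers were lower and 3 higher than on day 1 (17.5% and 17.0% of all genes). On day 4, 11 were higher and 7 lower than on day 2 (19.4% and 22.1% of all genes), and all 4 di- and tricarboxylate carriers were among the 11. Without day 2 replicate A 4 were lower. On day 7, 8 were higher and 6 lower than on day 4 (22.0% and 15.9% of all genes). Without day 7 replicate C 16 were higher, without day 7 replicate A or day 4 replicate B 4 were, and without day 7 replicate B 5 were. The 6 lower ones became 1 without day 7 replicate A and 2 without day 4 replicate B. On day 14, 1 carrier, Slc25a33, was higher and 4 were lower than on day 7 (5.07% and 7.46% of all genes). The 4 became 2 without day 14 replicate A.

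On day 14, 12 carriers were higher and 13 lower than on day 4 (28.6% and 23.3% of all genes). Slc25a16, Slc25a20, Slc25a23, Slc25a26, Slc25a29, Slc25a30, Slc25a33, Slc25a35, Slc25a36 and Slc25a51 had fallen by day 4 and were higher on day 14 than on day 4, a pattern of 15.9% of all genes. Among these are the carriers of acylcarnitine, NAD and S-adenosylmethionine, although Slc25a51, the NAD carrier, turned to -0.063 between days 4 and 14 on the TPM scale. Slc25a1, Slc25a3, Slc25a4, Slc25a5, Slc25a10, Slc25a13, Slc25a21, Slc25a38 and Slc25a45 had fallen by day 4 and were lower still on day 14, a pattern of 4.72% of all genes. Both ADP/ATP carriers, the phosphate carrier and 3 of the 4 di- and tricarboxylate carriers are among these 9. On the TPM scale Slc25a38 was at 0.0001 between these days. The call of Slc25a3 between these days was lost without any of the day 4 libraries, and that of Slc25a4 without day 4 replicate A or B. Slc25a24, Slc25a37 and Slc25a43 were higher on day 4 and lower on day 14 than on day 4, as were 15.6% of all genes. The comparisons of day 4 with day 0 and of day 14 with day 4 share the day 4 libraries.

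The ratio of related carriers within a library was compared with day 0 by the exact two-sided permutation test in 16 comparisons (8 pairs, days 4 and 14). The groups did not overlap in 14 of them, each with an exact p = 0.1, the smallest that 3 against 3 libraries allow, and an adjusted exact p of 0.114. The pair Slc25a13 and Slc25a12 overlapped at both times (exact p = 0.4 on day 4 and 0.8 on day 14). Slc25a24 and Slc25a25 were each set against Slc25a23, so the 16 comparisons are not separate. No share over all gene pairs was taken, so the 14 have no background beside them. The glutamate pair (Slc25a22 and Slc25a18) and the ornithine pair (Slc25a15 and Slc25a2) were not tested. Against day 0, the glutamate pair overlapped on day 4 and the ornithine pair on day 14.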

How the data were processed

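Reads were trimmed with cutadapt 2.3, checked with FastQC 0.11.8, aligned with STAR 2.7.8a and quantified with RSEM 1.3.3 on GRCm38, per the submitters' processing notes. The authors deposited 1 table of RSEM expected counts and 1 table of TPM for 18 libraries; the annotation release and strand setting are not stated there. Expected counts were rounded to whole numbers, and entries with no gene ID (5 of 55426) were left out. Genes passing filterByExpr (18754) were fitted in 1 model of 6 day means with edgeR 4.0.16 (TMM, quasi-likelihood F test, Benjamini-Hochberg adjustment). The correlations between libraries used log2 CPM with a prior count of 2, a setting that was not part of the fit. Replicate letters were left out of the model, since same-letter libraries correlated over 0.1 in all 3 pairs for only 1 of 15 pairs of days (days 2 and 4). Ratios of related carriers used TPM with a pseudocount of 0.01. Alternatives were DESeq2 1.42.0, limma 3.58.1 on log2(TPM + 1) or log2(TPM + 0.1), other scalings and filters, a replicate block, and each library left out. Positions and exon overlaps are from GENCODE vM21 (all 47 members found, 14 overlapping another gene by exon), promoters from RefSeq. Per-library values are given for 25 carriers: the largest changes on days 1, 4 and 14 among called carriers with at least 5 CPM, those that turned back most, and a fixed list. Members and lists were chosen with earlier results of these data known. Totals of 23799559 to 37579097 counts a library set the precision. Single results of a few listed genes are not reported here.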

Additional observations from a re-analysis of the deposited data

How the results depend on the processing

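Of 150 comparisons of named carriers, 114 kept direction and side of the threshold under all 28 alternatives. Of 172 exceptions, 115 came with library totals alone or limma on TPM. Both moved the median of all genes (0.57 and 0.58 on day 4, against 0.076), and limma also changed the test and the length correction, so the parts of these were not told apart. Carriers called higher against day 0 on days 1, 2, 4, 7 and 14 numbered 8, 8, 6, 9 and 9 with library totals alone, 9, 8, 7, 10 and 10 with limma on log2(TPM + 1), 9, 8, 8, 10 and 10 on log2(TPM + 0.1), and 9, 8, 7, 9 and 10 without a filter on low TPM, against 5, 2, 3, 3 and 3. The shares of all genes called under each of these settings are not given here. Between culture days, day 2 against day 1 gave 5 higher with library totals alone and 8 lower with limma without a filter. Day 7 against day 4 gave 3 higher and 3 lower with only the libraries of those days, 13 higher and 3 lower with limma on log2(TPM + 0.1), and 3 lower with no filter on low counts. Day 14 against day 7 gave 3 higher with library totals alone, 0 higher and 1 lower with only the libraries of those days, 3 higher with the DESeq2 Wald test, 3 higher and 2 lower with limma on log2(TPM + 1), 3 higher on log2(TPM + 0.1), and 2 higher and 1 lower without a filter. Leaving out each library gave 4 to 10 lower on day 4 against day 2, 4 to 16 higher and 1 to 7 lower on day 7 against day 4, and 2 to 6 lower on day 14 against day 7.

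Slc25a1 turned in sign against day 0 to 0.13 and 0.19 on days 4 and 7 with library totals alone, and 0.30, 0.41 and 0.017 on days 4, 7 and 14 with limma on log2(TPM + 1), with or without the filter, and 0.30, 0.41 and 0.017 on days 4, 7 and 14 on log2(TPM + 0.1). Slc25a22 turned to 0.30 and 0.033 on days 1 and 14 with library totals alone, and 0.50, 0.17, 0.037, 0.14 and 0.34 on days 1, 2, 4, 7 and 14 with limma on log2(TPM + 1), with or without the filter, and 0.52, 0.18, 0.039, 0.15 and 0.35 on days 1, 2, 4, 7 and 14 on log2(TPM + 0.1). Slc25a25 changed sign to 0.11 on day 14 with library totals alone, and 0.30 on day 14 with limma on log2(TPM + 1), with or without the filter, and 0.31 on day 14 on log2(TPM + 0.1). Slc25a30 turned in sign against day 0 to 0.062 on day 14 with limma on log2(TPM + 1), with or without the filter, and 0.064 on day 14 on log2(TPM + 0.1). Slc25a32 turned to 0.45, 0.33 and 0.087 on days 2, 4 and 14 with library totals alone, and 1.07, 0.95, 0.50 and 0.54 on days 2, 4, 7 and 14 with limma on log2(TPM + 1), with or without the filter, and 1.15, 1.03, 0.54 and 0.59 on days 2, 4, 7 and 14 on log2(TPM + 0.1). Slc25a33 changed sign to 0.023 on day 4 with library totals alone, and 0.17 and 0.17 on days 4 and 7 with limma on log2(TPM + 1), with or without the filter, and 0.18 and 0.17 on days 4 and 7 on log2(TPM + 0.1). Slc25a37 turned in sign against day 0 to 0.45 on day 2 with library totals alone, and 0.51 on day 2 with limma on log2(TPM + 1), with or without the filter, and 0.59 on day 2 on log2(TPM + 0.1). The ratio of Slc25a13 to Slc25a12 on day 14 turned to 0.020 with CPM in place of TPM and to 0.065 without day 0 replicate B, and leaving out each library gave -0.16 to 0.065.

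Same-letter libraries of different days correlated at -0.17 to 0.42 (45 pairs, median 0.025, 8 over 0.1), and 12 of 18 libraries correlated best with their own letter. With the replicate block 33 carriers were lower and 3 higher on day 4 against day 0, as without it, and 40 differed among the 6 days, against 39. Between days 2 and 4, where all 3 same-letter pairs correlated at 0.16 to 0.29, the block gave 11 higher and 8 lower, against 11 and 7. In a comparison chosen after seeing the data, carriers lower on all 5 days numbered 22 to 28 over all alternatives and 26 to 28 with each library left out. Low counts limit Slc25a34, Slc25a21 and Slc25a43 most, and the parts played by the strand setting and the cell makeup were not tested.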

Other observations

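Relatives and partners of the carriers did not move as a block. Ucp2, an uncoupling protein outside the symbol rule, averaged 31.9 ± 3.12 CPM on day 1, 216 ± 12.8 CPM on day 4 and 299 ± 3.21 CPM on day 14, against 138 ± 28.3 CPM on day 0 (SD, n = 3), while the outer-membrane relatives Mtch1 and Mtch2 were lower on day 4 (log2 fold changes -1.06 and -0.46). Of 13 listed genes of the machinery that inserts carriers into the inner membrane, 4 were higher on day 4 (Tomm22, Tomm40, Tomm70a and Timm8a1) and 7 lower, with a median log2 fold change of -0.16, against -1.40 for the 42 tested carriers. Among all tested genes the shares on that day were 38.1% higher and 36.8% lower. On each of days 7 and 14, 2 of the 13 were higher (Tomm22 and Tomm40) and 9 lower, with medians of -0.48 and -0.43. Among all tested genes 37.6% and 37.4% were higher on these days, and 32.1% were lower on each. Tomm40, the import pore, averaged 213 ± 18.1 CPM on day 4, against 93.4 ± 3.55 CPM on day 0.

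Of 18 other mitochondrial transporters, 14 were lower and 2, Sfxn3 and Vdac3, higher on day 4. The pyruvate carrier subunits Mpc1 and Mpc2 had log2 fold changes of -2.89 and -3.4. Respiratory chain genes of the nucleus were lower in 92 of 94 on day 4 (median -1.83), and all 15 tested mitochondrially encoded genes were lower (median -4.01). Among all tested genes 36.8% were lower and 38.1% higher on that day.

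The deposited counts and TPM of a gene also give the relative transcript length that the quantification used. Against the median of all genes with a mean of at least 50 counts, Slc25a32 had a mean log2 length difference from day 0 of -0.47 ± 0.044 after 1 day, -0.62 ± 0.044 after 2 days, -0.56 ± 0.078 after 4, -0.36 ± 0.1 after 7 and -0.26 ± 0.14 after 14 (SD, n = 3). On day 4 that difference was at the 98.2 percentile of all genes by size. Slc25a32 was not alone. Slc25a51 was at -0.40 on day 4 (96.5 percentile), and Slc25a36 and Slc25a38 at -0.44 and -0.35 on day 14 (97.6 and 96.3 percentile). Slc25a53 went the other way on day 4 (0.29) and Slc25a45 on day 14 (0.16). The part of such shifts in the TPM shares and TPM-scale changes of these carriers was not tested. These are descriptions with no test, chosen after their values were seen.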
